A study of Mus musculus with 4 samples.

Results

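SIN3 and CoREST are corepressor complexes that carry the histone deacetylases HDAC1 and HDAC2 to chromatin, and the transcripts of 10 of their subunits were examined in mouse oocytes cultured with or without a deacetylase inhibitor. The 10 genes were chosen by name: Sin3a, Sin3b, Sap18, Sap30, Suds3 and Ing2 of the SIN3 complex, and Rcor1, Rcor2, Rcor3 and Kdm1a of the CoREST complex. All 10 were found among the 26631 rows of the table, and 8 of them were among the 9461 genes abundant enough to be tested, with a mean of at least 1 RPKM (reads per kilobase of exon, normalised to the size of the library). RNA was sequenced from denuded oocytes, that is, oocytes stripped of their cumulus cells, of wild type C57BL/6 mice at postnatal day 24. One group was cultured with HDACi 4b and the control group with DMSO. The study used HDACi 4b as an inhibitor of the deacetylase HDAC3, and states that it prefers HDAC3 but also inhibits HDAC1. Each group had 2 libraries (n = 2). Whether the replicates are separate cultures or animals is not stated in the labels, and p-values therefore reflect the spread among these 4 libraries alone, which may be technical.

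In the SIN3 complex, the scaffold proteins SIN3A and SIN3B hold the deacetylases and are brought to promoters by DNA-binding factors. In the CoREST complex, RCOR proteins join the deacetylases to KDM1A, a demethylase that removes methyl groups from lysine 4 of histone H3. The complexes therefore couple the loss of histone acetylation to the reading or the loss of this methyl mark, and in mouse oocytes HDAC2 is known as the main deacetylase of this pair.

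The sequences that bear most on how a member can be read are those of Sap18 and its copy Sap18b. The coding sequences of the annotated genes, 516 bases each, were 100% identical, with 0 mismatches. The start of each is shown, because reads from it cannot be assigned to either gene by sequence. The copies lie on the plus strand of GRCm38 at chr14:57798226-57798300 (Sap18) and chr8:95825364-95825438 (Sap18b), and the letters are the first 75 coding bases.
Sap18: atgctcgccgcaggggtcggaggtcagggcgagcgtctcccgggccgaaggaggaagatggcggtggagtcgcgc
Sap18b: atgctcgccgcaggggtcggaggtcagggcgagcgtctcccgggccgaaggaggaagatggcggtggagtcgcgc
Of the 32-base stretches of Sap18b transcripts, 98.8% also occurred in Sap18, whereas 13.6% of those of Sap18, a longer gene, occurred in Sap18b.

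Sap30 and its paralog Sap30l, which stood far apart in level in every library, had no 32-base stretch in common with any other annotated gene. Their upstream promoters are shown to set the pair side by side. They come from the RefSeq tables on GRCm38.p6, each being the 250 bases before the start of the gene, on the strand of the gene, with every CG dinucleotide in capitals. Sap30 is on the minus strand at chr8:57487861-57488110 and Sap30l on the plus strand at chr11:57801387-57801636.
Sap30: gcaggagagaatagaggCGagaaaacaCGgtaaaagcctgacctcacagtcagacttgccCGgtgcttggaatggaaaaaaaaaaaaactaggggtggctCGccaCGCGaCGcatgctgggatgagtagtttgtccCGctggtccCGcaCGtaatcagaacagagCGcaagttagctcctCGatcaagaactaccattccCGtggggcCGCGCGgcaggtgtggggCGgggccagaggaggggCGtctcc
Sap30l: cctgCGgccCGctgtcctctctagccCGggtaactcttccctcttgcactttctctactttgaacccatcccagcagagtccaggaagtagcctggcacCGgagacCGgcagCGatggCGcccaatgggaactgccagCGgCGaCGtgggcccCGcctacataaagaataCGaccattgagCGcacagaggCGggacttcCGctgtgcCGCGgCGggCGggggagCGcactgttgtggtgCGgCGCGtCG
The Sap30 run held 18 CG dinucleotides and the Sap30l run 24. Both promoters were thus rich in CG, the lower expressed paralog more so.

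All 10 members matched a promoter of 300 bases (250 before and 50 after the start) in the same tables. The members held from 14 (Sin3a and Sin3b) to 47 (Rcor3) CG dinucleotides, against a median of 7 over 27025 genes. Rcor3, with the most, was the second least expressed member, so the count did not follow the level here. Motifs were searched on both strands and are spelled out as letters. GGGCGG, the GC box, was found in 8 of the 10 members and in 35.9% of all promoters. GCGC on either side of any pair of bases, a core of the NRF1 motif, was found in 4 of 10 and in 6.43%, CCAAT in 4 of 10 and in 37.9%, TATAAA in 2 of 10 and in 14.2%, and the E-box CACGTG in 1 of 10, Rcor2, and in 7.24%. The GC box and the NRF1 core can share bases, and the counts describe sequence and not the binding of a factor. For Sin3a, which has more than 1 start in the tables, the first was used.

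The libraries held 14903547 and 14091412 reads in the HDACi 4b group and 14143248 and 13478189 reads in the control group, as recovered from the deposited values. A gene with 0 reads may still have had up to 3, which is 0.201 to 0.223 CPM (reads normalised to library size), and such limits cover counting error only. The labels name denuded oocytes and, in the extraction note, ovaries. All 12 oocyte markers were above 1 RPKM, with Zp3, a zona pellucida protein, at 2974 and 2555 RPKM in HDACi 4b and 3922 and 2914 RPKM in control oocytes. Of 13 measured granulosa and cumulus markers, 2 reached 1 RPKM, and the list summed to 7.57 and 6.45 RPKM in HDACi 4b and 6.64 and 7.62 RPKM in control oocytes. The 8 theca and stroma markers summed to at most 1.43 RPKM. Of 9 blood, immune and endothelial markers 6 reached 1 RPKM, and their sum was 201 and 66.2 RPKM in HDACi 4b and 120 and 76.7 RPKM in control oocytes. The macrophage genes C1qa and C1qb carried much of it, with C1qa at 74.4 and 8.12 RPKM in HDACi 4b and 33.3 and 9.42 RPKM in control oocytes, and C1qb at 87.8 and 46.9 RPKM in HDACi 4b and 62.5 and 51.4 RPKM in control oocytes. Lyz2 of myeloid cells was at 29.4 and 6.69 RPKM in HDACi 4b and 16.7 and 9.42 RPKM in control oocytes. In contrast, Ptprc, the pan-leukocyte antigen, was at most 0.205 RPKM. Of the endothelial genes, Cdh5 was listed at 0 in 3 of the 4 libraries. Pecam1 was at 1.25 and 1.30 RPKM in HDACi 4b and 1.53 and 1.66 RPKM in control oocytes. Replicate 1 had the higher sum in each group, and the part of these cells in the results below was not tested. In bulk RNA, fewer cells of a type and less RNA per cell cannot be told apart.

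The levels of the subunits were widely spread, in the order Sap18, Sap30, Sin3a, Sin3b, Rcor1, Kdm1a, Suds3, Ing2, Rcor3 and Rcor2. Their means over all 4 libraries ran from 355 RPKM for Sap18 to 0.0349 RPKM for Rcor2. Sap18 stood above 99.4% of the rows of the table and Sap30 above 98.6%, while Sin3a, the scaffold, stood above 92.7%. Each member was above the next in every library with ranges that did not overlap, except that Rcor1 overlapped Kdm1a and Kdm1a overlapped Suds3.

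**Figure D1:**
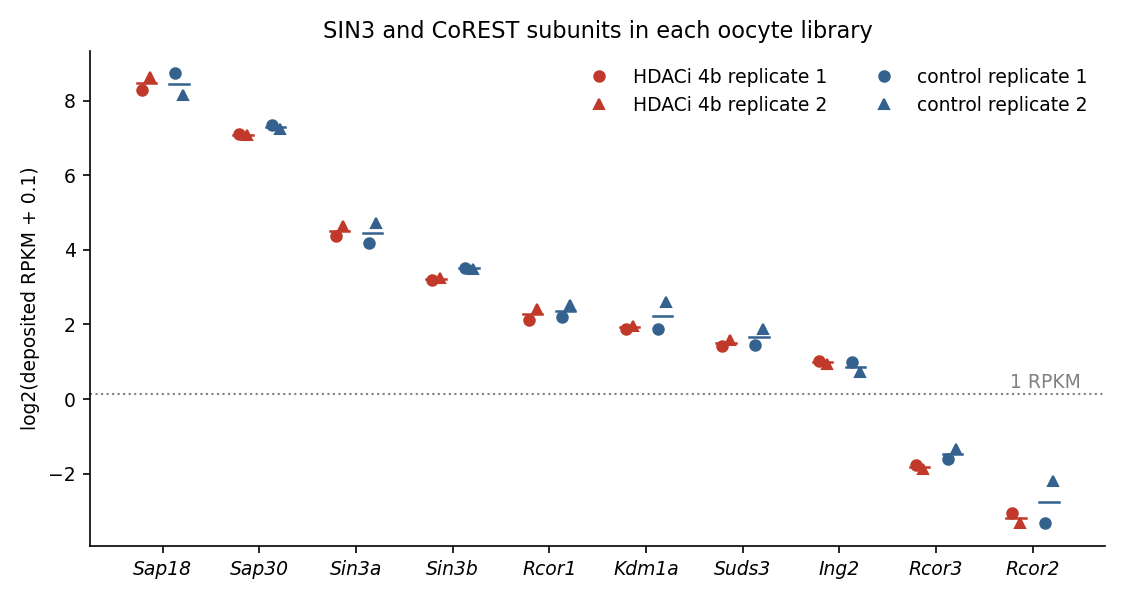
Level of each subunit in each library, as log2(deposited RPKM + 0.1), with subunits ordered by mean. HDACi 4b libraries (red) are left of control libraries (blue), circles are replicate 1, triangles replicate 2 and short lines the mean of each group (n = 2). The groups lie close together compared with the distances between subunits, and only Rcor3 and Rcor2 lie under 1 RPKM (dotted).

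The middle of this order depends on the length by which reads are divided. The deposited values divide by all annotated exons, 11321 bases for Suds3 and 13622 bases for Rcor3. A single coding transcript was chosen for each gene, of 1694 and 1844 bases for these genes. For Sin3a, Suds3, Rcor1, Rcor3 and Kdm1a the annotation tags the chosen transcript as an alternative and not as the principal one. The rule of choice put alternative tags before principal ones. The longest coding transcripts of Suds3 and Rcor3 have 2425 and 3791 bases, so the values below depend on the transcript chosen. Reads of all exons were divided by the length of the chosen transcript, so the values are not levels of that transcript alone. By this measure, a choice made after seeing the data, Suds3 was at 19.6 RPKM and came 4th. It was ahead of Sin3b at 18.3, Kdm1a at 7.22 and Rcor1 at 4.89 RPKM. At the longest coding transcript of Suds3, of 2425 bases, Suds3 would instead lie below Sin3b. Rcor1 has a shorter coding transcript of 2720 bases, at which Rcor1 would lie above this value of Kdm1a. The middle places are therefore not settled. Rcor3 was at 1.66 RPKM by its chosen transcript. Sap18, Sap30 and Sin3a kept the first places and Ing2, Rcor3 and Rcor2 the last under both the deposited and the chosen lengths. The plain ratio of RPKM between the groups does not depend on the length. The filter and the constant added before the log do act on RPKM, so the tests and fitted folds of low genes can depend on it. Rcor3, at 1.66 RPKM by the chosen transcript, would be above the filter, but at its longest coding transcript it would be under the filter. All tests below used the deposited lengths.

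The comparison of the groups asks whether the transcripts of these complexes differ in oocytes after culture with the inhibitor. None of the 8 tested subunits differed beyond the spread between libraries. With limma and Benjamini-Hochberg adjustment, 0 of the 8 passed at 0.05 in either direction, against a background of 0 higher (0%) and 0 lower (0%) among all 9461 tested genes. At an unadjusted p under 0.05 there were 0 of the 8, against 268 genes (2.83%) in all, split into 136 higher and 132 lower. limma-voom on the recovered reads also called 0 genes, and there 102 higher and 121 lower genes had an unadjusted p under 0.05. The log2 fold changes of the members ran from -0.25 (Kdm1a) to 0.19 (Ing2), with 3 positive, 5 negative and a median of -0.06, against a median of -0.0016 over all tested genes. Their median size of 0.13 was close to the 0.14 of all tested genes. A missed threshold does not show that levels were equal, so the 95% interval of each fold was set against a 2-fold limit. The interval lay wholly within 2-fold in either direction for 8 of the 8, against 81.2% of all tested genes. This count rested on all 4 libraries, since it was 4 of 8 when HDACi 4b replicate 2 was left out and 5 of 8 when control replicate 1 was.

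**Figure D2:**
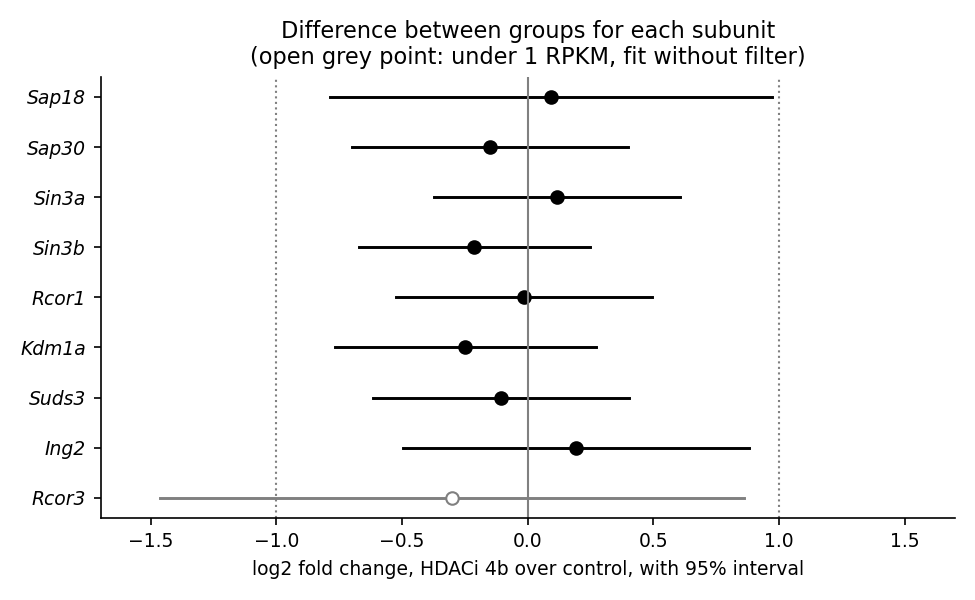
Log2 fold change of each subunit, HDACi 4b over control, with its 95% interval from limma (filled points, 8 tested subunits). The open grey point is Rcor3, under 1 RPKM and fitted without the filter, and dotted lines mark 2-fold. Every interval crosses 0, and those of the tested subunits lie between the dotted lines.

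The scaffolds Sin3a and Sin3b were of middle to high abundance, and after scaling the values of their groups overlapped. Sin3a (chromosome 9, 57072040 to 57128366, GRCm38, plus strand) was at 20.48 and 24.8 RPKM in HDACi 4b oocytes and at 18.2 and 26.1 RPKM in control oocytes. As deposited, the treated values lay between those of the controls. After scaling, the controls, at 19.98 and 22.7 RPKM, lay between the treated values, at 19.87 and 26.8 RPKM. The fold was 1.08 with a 95% interval of 0.772 to 1.52 (log2 fold change 0.12, SE 0.20, adjusted p = 1.0). Sin3b (chromosome 8, 72723285 to 72758201, plus strand) was at 9.11 and 9.33 RPKM in HDACi 4b oocytes and at 11.3 and 11.2 RPKM in control oocytes. Its deposited values did not overlap between the groups and were lower with HDACi 4b, as were those of 16.8% of all tested genes, against 6.60% that were higher. After scaling of the libraries the Sin3b values overlapped, at 8.83 and 10.1 RPKM with HDACi 4b and 12.4 and 9.70 RPKM in control oocytes. The fold was 0.863 (95% interval 0.627 to 1.19, log2 fold change -0.21, SE 0.19, adjusted p = 1.0). Exons of Sin3a overlap those of Man2c1os on the opposite strand, and since no source used here gives the strand setting of the counting, reads in that overlap cannot be assigned.

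Sap18 and Sap30, small SIN3 subunits that bind the scaffold, were the most abundant members. Sap18 (chromosome 14, 57798180 to 57806638, plus strand) also belongs to the ASAP and PSAP complexes of RNA processing. It was at 312 and 399 RPKM in HDACi 4b oocytes and at 425 and 284 RPKM in control oocytes, from 25269 and 30557 against 32659 and 20785 reads. The controls lay on either side of both treated values, and after scaling their highest value was 1.89 times their lowest. The fold of 1.07 therefore had the widest interval of the tested members, 0.579 to 1.96 (SE 0.37 on the log2 scale, adjusted p = 1.0). The direction rested on single libraries, since the log2 fold change was 0.09 with all 4 libraries, -0.37 when control replicate 2 was left out and -0.16 when HDACi 4b replicate 2 was. Sap18b (chromosome 8, 95825346 to 95826134) was at 606 and 670 RPKM in HDACi 4b and 695 and 525 RPKM in control oocytes, from 7128 and 7451 against 7751 and 5585 reads. Because of the shared sequence shown above, the division of reads between the copies is uncertain. Summed as 1 gene, a choice made after seeing the data, they had a log2 fold change of 0.10 (SE 0.36).

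Sap30 (chromosome 8, 57482707 to 57487860, minus strand) was at 137 and 134 RPKM in HDACi 4b oocytes and at 163 and 152 RPKM in control oocytes. Its deposited values, like those of Sin3b, were lower with HDACi 4b without overlap. These were 2 of the 8 tested members, against the 16.8% of all tested genes given above, and 0 of the 8 were higher. Scaled, they overlapped, at 133 and 144 RPKM with HDACi 4b and 179 and 132 RPKM in control oocytes. The fold was 0.901 (95% interval 0.616 to 1.32, log2 fold change -0.15, SE 0.23, adjusted p = 1.0). After scaling, 0 of the 8 tested members had groups without overlap, against 13.6% of all tested genes that were higher and 14.5% that were lower.

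Suds3 and Ing2 were under 4 RPKM in every library at the deposited lengths, where Suds3 is divided by far more exon than its longest coding transcript has. Suds3 (chromosome 5, 117091680 to 117116113, minus strand), which helps to assemble the complex, was at 2.56 and 2.91 RPKM in HDACi 4b oocytes and at 2.65 and 3.60 RPKM in control oocytes. The fold was 0.930 (95% interval 0.653 to 1.32). Ing2 (chromosome 8, 47667178 to 47675556, minus strand), whose PHD finger reads the trimethyl mark on lysine 4 of histone H3, was at 1.93 and 1.83 RPKM in HDACi 4b oocytes and at 1.90 and 1.55 RPKM in control oocytes. It rested on 87 and 78 against 81 and 63 reads, and its fold was 1.14 (95% interval 0.708 to 1.84). The groups of both genes overlapped, and the adjusted p of each was 1.0.

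In the CoREST complex, the demethylase Kdm1a and Rcor1 were present and the other RCOR genes were under 1 RPKM at the deposited lengths. Divided by the length of its chosen transcript, with reads of all exons kept, Rcor3 was above 1 RPKM. Its longest coding transcript would put Rcor3 under 1 RPKM. Kdm1a (chromosome 4, 136550540 to 136602723, minus strand) was at 3.55 and 3.82 RPKM in HDACi 4b oocytes and at 3.56 and 5.96 RPKM in control oocytes. Control replicate 2 stood above the other 3 libraries, which were close to each other. The fold was 0.842 (95% interval 0.588 to 1.21, log2 fold change -0.25, SE 0.22), and its unadjusted p of 0.291 was the smallest of the 8 (adjusted p = 1.0). Rcor1 (chromosome 12, 111039351 to 111115901, plus strand) was at 4.21 and 5.28 RPKM in HDACi 4b oocytes and at 4.47 and 5.60 RPKM in control oocytes. As deposited, replicate 2 was the higher in each group, but after scaling the controls were at 4.90 and 4.86 RPKM. The fold was 0.990 (95% interval 0.696 to 1.41, log2 fold change -0.01, SE 0.21, adjusted p = 1.0).

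Rcor3 and Rcor2 were too low to be tested with the filter. Rcor3 (chromosome 1, 192098546 to 192138062, minus strand) was at 0.197 and 0.172 RPKM in HDACi 4b oocytes and at 0.228 and 0.2996 RPKM in control oocytes, from 40 and 33 against 44 and 55 reads. Its values were lower with HDACi 4b without overlap, as deposited and scaled, but the fit without a filter gave 0.812 as the fold (95% interval 0.362 to 1.82, adjusted p = 1.0). Among the tested genes, 16.8% were lower without overlap as deposited and 14.5% after scaling. The share among rows as low as Rcor3 was not counted. Exons of Rcor3 overlap those of 3 genes on the opposite strand, of which Gm26879 shares 4.60% of the 32-base stretches of Rcor3. Rcor2 (chromosome 19, 7267325 to 7275225, plus strand), known from neural and embryonic stem cells, had 1 and 0 reads in HDACi 4b oocytes and 0 and 5 reads in control oocytes. Its reads came out whole at a length other than the annotated one. A count of 3 corresponds to 0.0643 and 0.0680 RPKM with HDACi 4b and 0.0678 and 0.0711 RPKM in control oocytes, so Rcor2 was at or near the limit that a count of 0 allows and its fitted fold, which depends on the pseudocount, is not read.

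Levels of paralogs were compared within each library. Sin3a exceeded Sin3b by 2.25 and 2.66 times in HDACi 4b and by 1.61 and 2.34 times in control oocytes. At the lengths of the chosen transcripts the mean ratio was 1.31, so the lead of Sin3a was modest. Rcor1 exceeded Rcor3 by 21.4 and 30.7 times in HDACi 4b and by 19.6 and 18.7 times in control oocytes. Both treated ratios lay above both controls, and at the lengths of the chosen transcripts the mean ratio was 3.06. Sap30 exceeded Sap30l by 54.7 and 35.0 times in HDACi 4b and by 76.0 and 43.6 times in control oocytes. Both genes of this pair have 1 annotated transcript, so the choice of length does not bear on it. The size of the lead of Rcor1 over Rcor3, in contrast, depended on the transcripts chosen for both genes and is not settled.

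Kdm1b, the paralog of Kdm1a that is known to act in growing mouse oocytes when maternal imprints are set, was the more abundant of the pair. It was at 10.8 and 9.76 RPKM in HDACi 4b and 6.70 and 12.1 RPKM in control oocytes, with control replicate 1 the lowest. It exceeded Kdm1a by 3.05 and 2.55 times in HDACi 4b and by 1.88 and 2.02 times in control oocytes. At the lengths of the chosen transcripts the mean ratio was 1.53. The ratio was higher in both treated libraries than in both controls, and an exact permutation test of 2 against 2 libraries cannot go below p = 0.333. The same limit holds for Rcor1 over Rcor3 above and for Hdac2 over Hdac1 and Rbbp7 over Rbbp4 below. The log2 fold change of Kdm1b alone was 0.26 (SE 0.21, adjusted p = 1.0). Exons of Kdm1b and Dek overlap on opposite strands, over 8.54% of the 32-base stretches of Kdm1b. Ing1, the paralog of Ing2, was 6.24 and 7.12 times as abundant as Ing2 in HDACi 4b and 5.80 and 8.89 times in control oocytes (a pair chosen after its values were seen).

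**Figure D3:**
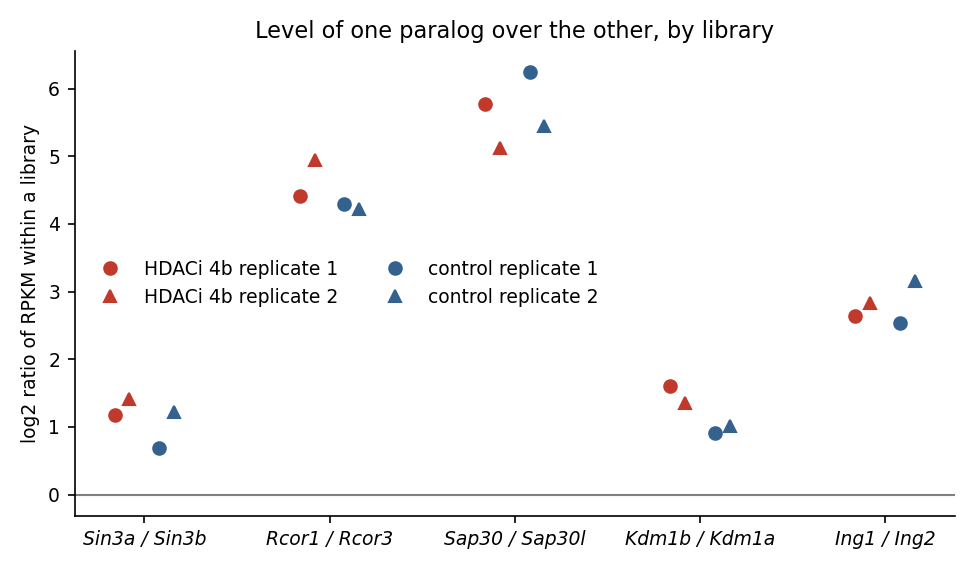
Ratio of deposited RPKM between paralogs within each library, on a log2 scale, with HDACi 4b libraries (red) left of control libraries (blue). Circles are replicate 1 and triangles replicate 2. All ratios lie above 0, and of the 5 pairs plotted, Kdm1b over Kdm1a and Rcor1 over Rcor3 have both HDACi 4b libraries above both controls. Such a split of 2 against 2 libraries cannot go below p = 0.333 in an exact permutation test.

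Of the deacetylases that both complexes carry, Hdac2 was the more abundant in every library. Hdac2 (chromosome 10, 36974544 to 37001889) was at 25.5 and 27.5 RPKM in HDACi 4b and 22.9 and 34.3 RPKM in control oocytes. Its log2 fold change was -0.01 (SE 0.19, adjusted p = 1.0). It was 22.2 and 27.8 times as abundant as Hdac1 in HDACi 4b and 36.0 and 31.9 times in control oocytes, so that both treated ratios lay below both controls. Hdac1 (chromosome 4, 129516104 to 129542713) was at 1.15 and 0.989 RPKM in HDACi 4b and 0.636 and 1.08 RPKM in control oocytes, from 59 and 48 against 31 and 50 reads. Hdac1 lay under the filter, and the fit without a filter gave 0.39 on the log2 scale (SE 0.31, adjusted p = 1.0). Per length, Hdac2 was thus close to Sin3a in level, while Hdac1 lay below Ing2.

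Of 12 further genes of the SIN3 complex, 11 were measured and 8 tested, with 3 log2 fold changes above 0, 5 below 0 and 0 past the threshold. Rbbp7, a histone-binding subunit, was at 1503 and 1388 RPKM in HDACi 4b and 1687 and 1577 RPKM in control oocytes. It was thus above every member in all libraries. Its paralog Rbbp4, named after its values were seen, was at 0.215 and 0.130 RPKM in HDACi 4b and 0.251 and 0.484 RPKM in control oocytes, so that here too a single paralog made up nearly all of the pair. The ratio of Rbbp7 over Rbbp4 was 6993.2 and 10690.5 in HDACi 4b and 6730.76 and 3260.97 in control oocytes. Both treated ratios thus lay above both controls, with the limit on p given above. Fam60a, a further subunit, was at 32.5 and 26.2 RPKM in HDACi 4b and 29.9 and 31.99 RPKM in control oocytes. The smallest p of these genes was that of Sap30l, whose log2 fold change was 0.24 (SE 0.30, adjusted p = 1.0).

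Of 13 CoREST and KDM1A partners, all 13 were measured and 5 tested, with 2 log2 fold changes above 0, 3 below 0 and 0 past the threshold. Rest, the repressor of neuronal genes that recruits CoREST and SIN3, was at 15.1 and 15.0 RPKM in HDACi 4b and 13.5 and 19.1 RPKM in control oocytes. Kdm1b, described above, had the smallest p of the list.

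Of 10 DNA-binding factors known to recruit SIN3 and their partners, 6 were tested, with 1 log2 fold change above 0, 5 below 0 and 0 past the threshold. The gene above 0 was Mga, a MAX-binding factor. It was at 3.19 and 2.89 RPKM in HDACi 4b and 2.01 and 2.44 RPKM in control oocytes. Both its treated libraries (2 of 2) were above both controls, as in 6.60% of all tested genes. Its log2 fold change of 0.50 (SE 0.20) had an unadjusted p of 0.0405 and an adjusted p of 1.0, so it did not pass. Mlx, a MAX-like factor, was at 19.1 and 12.8 RPKM in HDACi 4b and 17.7 and 19.5 RPKM in control oocytes. Max was at 3.66 and 4.50 RPKM in HDACi 4b and 3.60 and 5.61 RPKM in control oocytes.

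Of the 3 ASAP and PSAP partners of SAP18, 2 were tested and 0 passed. Rnps1, an RNA-binding protein, was at 15.1 and 12.5 RPKM in HDACi 4b and 13.1 and 19.1 RPKM in control oocytes. Pnn was at 11.3 and 10.4 RPKM in HDACi 4b and 8.33 and 13.0 RPKM in control oocytes. Per length, Sap18 was thus more than 10 times as abundant as either partner in every library.

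Of 13 enzymes and cofactors that write, or remove, methyl groups on lysine 4 of histone H3, 9 were tested, with 4 log2 fold changes above 0, 5 below 0 and 0 past the threshold. Dpy30, a subunit of the methyltransferase complexes, was at 267 and 389 RPKM in HDACi 4b and 349 and 280 RPKM in control oocytes, with the same libraries high as for Sap18. Wdr5 of the same complexes was at 10.2 and 11.5 RPKM in HDACi 4b and 10.5 and 16.0 RPKM in control oocytes. Kdm5c, a demethylase of the trimethyl mark, was at 4.08 and 3.64 RPKM in HDACi 4b and 3.31 and 2.77 RPKM in control oocytes, with the smallest p of the list (log2 fold change 0.40, SE 0.24, adjusted p = 1.0). Over all 5 lists, 30 genes were tested and 0 passed. Of these, 1 had an unadjusted p under 0.05, against 2.83% of all tested genes. An interval within 2-fold was found for 30, against 81.2% of all tested genes. The median log2 fold change of the 30 genes was -0.03.

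**Figure D4:**
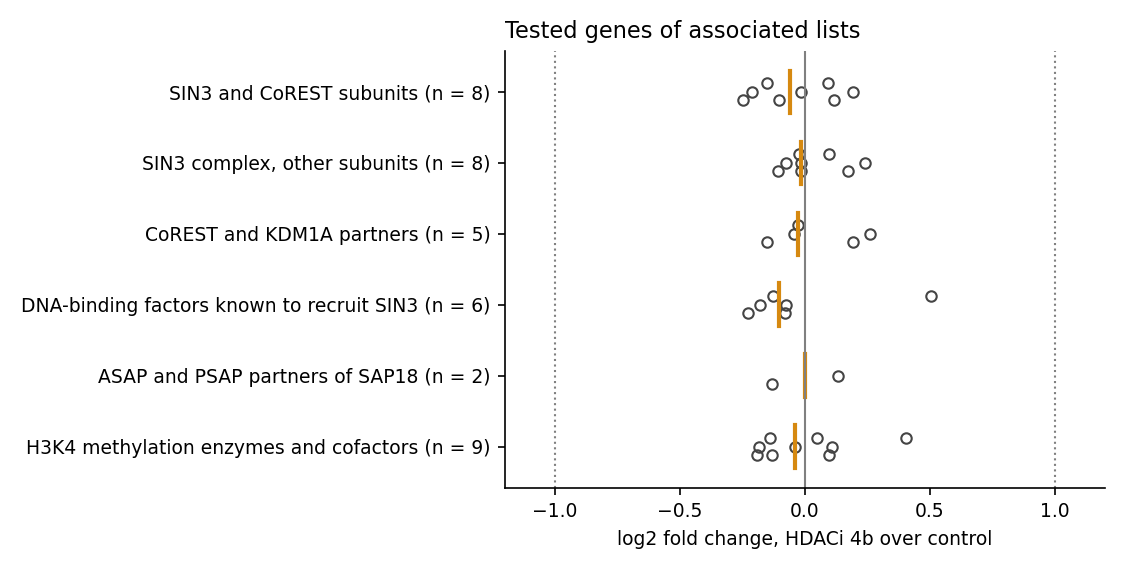
Log2 fold change, HDACi 4b over control, of each tested subunit (top row) and of each tested gene of the associated lists (rows below). Each open circle is 1 gene, the orange bars are medians and the dotted lines mark 2-fold. Every circle lies between the dotted lines, and Mga is the circle farthest from 0.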

How the data were processed

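RNA of 4 libraries of denuded oocytes was measured, 2 with HDACi 4b and 2 with DMSO, grouped by their labels. The authors deposited RPKM values for 26631 rows in 1 table, of which 0 columns of sample values stayed unused. Bowtie 0.12.2 and the build mm8 are named in the submitters' processing notes. Not given in the sources used here are the counting tool, its strand setting and the treatment of reads with several matches. With a tolerance of 0.01 reads, 85.0% of rows came out as whole reads at the exonic lengths of GENCODE M21 (GRCm38), which is used for names and coordinates, and 3995 rows gave whole reads at another length. Recovered reads summed to 99.8% of each library total.

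Values were divided by trimmed-mean factors of the reads (30% of ratios and 5% of levels trimmed), 1.03 and 0.925 for HDACi 4b and 0.911 and 1.15 for control libraries. Genes whose mean reached 1 RPKM were tested on log2(RPKM + 0.1) with limma 3.58.1 in R 4.3.3, two-sided, with an intensity trend, no covariate and Benjamini-Hochberg adjustment at 0.05. Fold changes are on that scale and understate those of low genes. Levels are as deposited unless called scaled. The test was checked on simulated data. The replicates differed beyond sampling noise (median chi-square per gene 2.35 for HDACi 4b and 2.96 for control, over 12933 genes), so none was counted as a copy.

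All 10 subunits, Hdac1, Hdac2 and the paralogs Kdm1b, Sap30l and Sap18b were named, with the 2 most abundant genes and the tested gene with the smallest p of each of 5 associated lists. Members and lists were chosen with earlier results of these data known. Alternatives were other scalings, pseudocounts and filters, robust estimation, no trend, limma-voom on recovered reads, a block for the replicate number, and fits without each library in turn. Sap25 of the lists was not analysed here, and 1 gene that the rule names is not reported here.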

Additional observations from a re-analysis of the deposited data

How the results depend on the processing

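With 2 libraries per group, only changes well beyond the spread of single libraries could pass, and the lowest subunits (Rcor2, Rcor3) were limited by their reads. Under 16 alternatives per result, 153 values of the members were recomputed. Of these, 145 kept their direction, 8 turned it, all of them when a library was left out and 1 of them Rcor2, with its 6 reads in all, and 0 passed the threshold (smallest adjusted p 0.510, limma). Leaving out each library in turn, the genes called higher stayed at 0, the genes called lower ran from 0 to 3 (3 without HDACi 4b replicate 2) and the members called stayed at 0. The members with an interval within 2-fold, 8 with all libraries, ran from 4 without HDACi 4b replicate 2 to 7 without control replicate 2, and numbered 5 without control replicate 1. Leaving out HDACi 4b replicate 1 gave 6. Here the lone library of a group was assumed to vary like the others. The log2 fold change ran from -0.10 to 0.33 for Sin3a, from -0.37 to 0.55 for Sap18, from -0.37 to 0.071 for Sap30, from -0.27 to 0.061 for Suds3, from -0.11 to 0.49 for Ing2, from -0.25 to 0.22 for Rcor1 and from -0.90 to 0.13 for Rcor2, whose fitted values depend on the pseudocount. HDACi 4b replicate 2 was the library whose omission turned Sin3a and Sap18, control replicate 2 that for Sap18, Ing2 and Rcor2, control replicate 1 that for Sap30 and HDACi 4b replicate 1 that for Suds3 and Rcor1. The cause was not tested. Samples of the same number shared little (correlation of deviations 0.0453 over 9461 genes). The replicate block gave 0 genes in either direction, with 165 higher and 166 lower genes by the unadjusted p, and 7 members with an interval within 2-fold. It changed no other call of a member. With all 4 libraries, the members with an interval within 2-fold also numbered 7 with no intensity trend and 7 with the filter at 0.3 RPKM. Without a filter, 7 of 10 members had such an interval.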
